A study of Mus musculus with 4 samples.

Results

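The fibroblast growth factor (FGF) genes described here are 10 genes that drive or restrain branching of the lung, picked by gene symbol from the 45706 genes of the count table: the ligands *Fgf7*, *Fgf9*, *Fgf10* and *Fgf18*, the receptor *Fgfr2*, the Sprouty inhibitors *Spry1*, *Spry2* and *Spry4*, and the transcription factors *Etv4* and *Etv5*. Whole-tissue RNA was sequenced from the left lung lobes of 4 C57BL/6 mouse embryos at embryonic day 17 (E17), 2 of them *Myh10*+/+ and 2 *Myh10*-/-. The *Myh10*-/- embryos were homozygous for L458R, a missense change in the heavy chain of nonmuscle myosin IIB that arose in a chemical mutagenesis screen and is carried in every cell, so that neither a Cre driver nor a transgene was involved. None of the embryos had been treated, and the comparison asks how the RNA of the lung differs between the genotypes. The paper places these lungs at the saccular stage, which follows the stages it gives for branching. The values therefore do not show how these genes stood while the lung branched. None of the 10 FGF genes differed between the genotypes beyond the test's threshold, and the 95% confidence intervals of their differences ran from 0.751-fold to 1.44-fold.

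In the embryonic lung, FGF10 is secreted by the mesenchyme around the distal tips and acts on the epithelium through an epithelial splice form of FGFR2, which drives the outgrowth of new buds. Activated FGFR2 signals through the RAS-ERK cascade, which raises transcription of the ETS factors *Etv4* and *Etv5* and of the Sprouty genes, whose proteins dampen the same cascade. *Fgf7* encodes a further ligand of the epithelial splice form, while FGF9, made by mesothelium and epithelium, and FGF18, made by mesenchyme, act mainly on mesenchymal receptors.

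Promoter windows of the 250 bases before the start given by RefSeq (GRCm38.p6) were read for the members. Windows were found for 8 of the 10 members, 9 windows in all because *Etv5* has a pair of them; *Etv4* and *Spry4* had no entry. The windows of 3 members are shown, since *Fgf10* had the highest level per length of the ligands, *Spry1* the highest of the Sprouty genes and *Fgf18* the lowest p-value of the 10. *Fgf10* is shown from chr13:118714449-118714698 on the plus strand, *Fgf18* from chr11:33147401-33147650 on the minus strand and *Spry1* from chr3:37639697-37639946 on the plus strand, and none of the 3 windows held an annotated exon of its own gene. The *Fgf10* window lies inside the annotated span of the gene (118669791 to 118792115), past its first annotated start. Capitals mark a GC box, GGGCGG, or its reverse complement.
Fgf10: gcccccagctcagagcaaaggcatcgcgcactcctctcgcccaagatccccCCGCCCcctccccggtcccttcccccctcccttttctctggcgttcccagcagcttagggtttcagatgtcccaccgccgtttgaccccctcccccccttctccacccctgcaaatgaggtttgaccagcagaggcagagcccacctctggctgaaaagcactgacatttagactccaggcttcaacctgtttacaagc
Fgf18: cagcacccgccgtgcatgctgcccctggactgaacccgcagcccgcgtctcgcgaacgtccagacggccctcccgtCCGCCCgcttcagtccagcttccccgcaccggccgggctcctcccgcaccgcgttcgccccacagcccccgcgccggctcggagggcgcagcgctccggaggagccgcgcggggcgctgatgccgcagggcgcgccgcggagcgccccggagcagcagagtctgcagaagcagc
Spry1: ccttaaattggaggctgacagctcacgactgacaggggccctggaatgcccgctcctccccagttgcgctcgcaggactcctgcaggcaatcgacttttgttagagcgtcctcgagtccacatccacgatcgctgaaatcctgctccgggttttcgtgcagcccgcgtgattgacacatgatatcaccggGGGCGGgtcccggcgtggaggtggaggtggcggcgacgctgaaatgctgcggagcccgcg

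The GC box, the letters bound by SP-family factors, was searched on both strands and occurred in 4 of the 9 windows (those of *Fgf10*, *Fgf18*, *Spry1* and *Etv5*), against 32.7% of the 32851 RefSeq windows of the same length. It lay 60 bases before the start in *Spry1*, and, as its reverse complement, 174 bases before it in *Fgf18* and 199 bases before it in *Fgf10*. The letters CGGAAG, a core bound by ETS factors such as ETV4 and ETV5, were in 0 of the 9 windows and in 13.6% of all windows. The letters TATAAA were in 0 of the 9 and in 12.4% of all windows. These are matches of letters in short windows and say nothing about binding in the lung.

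The deposited values were raw read counts per gene, with totals of 23156026 and 19116971 in the *Myh10*+/+ lungs and of 27573824 and 32055306 in the *Myh10*-/- lungs, so both *Myh10*-/- libraries were deeper. They were scaled here to counts per 1000000 counts of the library (CPM) after TMM normalization. Differences were tested with edgeR's quasi-likelihood test and Benjamini-Hochberg adjustment over 18763 genes, those whose counts averaged 5 or more. Across those genes 308 passed an adjusted p of 0.05, 252 of them lower in *Myh10*-/- lungs, which is 1.64% called and 1.34% called lower. *Myh10* itself stood at 505 and 504 CPM in *Myh10*+/+ lungs against 539 and 513 CPM in *Myh10*-/- lungs (adjusted p = 0.662), and a gene count does not show a change of 1 amino acid, so it does not check the labels. *Xist*, transcribed from the inactive X chromosome, was at 3920 and 4460 CPM in *Myh10*+/+ lung 1 and *Myh10*-/- lung 2 and at 1.84 and 4.1 CPM in the other two, so each genotype held 1 lung of each sex. Because whole lobes were used, fewer cells of a type and less RNA per cell cannot be told apart.

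The RNAs of *Fgf10* and *Fgf7*, which encode ligands of the epithelial receptor, did not differ between the genotypes past the threshold. Ligand protein was not measured in these libraries. *Fgf10* (ENSMUSG00000021732, chromosome 13 from 118669791 to 118792115, plus strand), the ligand that induces budding, measured 88.3 and 92.4 CPM in *Myh10*+/+ lungs against 92.6 and 92.8 CPM in *Myh10*-/- lungs. The *Myh10*-/- lungs were both above the *Myh10*+/+ lungs, yet the higher *Myh10*+/+ lung came within 1 CPM of them. The means were 90.4 ± 2.94 and 92.7 ± 0.177 CPM (SD, n = 2 each), a log2 difference of 0.04 ± 0.06 (SE; adjusted p = 0.799, edgeR's quasi-likelihood test), and the 95% interval of 0.941-fold to 1.12-fold was among the narrowest of the 10. An antisense gene, *Gm16263*, shares 123 bp of exon with *Fgf10* and had 56 and 42 counts in *Myh10*+/+ lungs and 70 and 89 in *Myh10*-/- lungs, where *Fgf10* had 1760 to 2988.

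*Fgf7* (ENSMUSG00000027208, chromosome 2 from 126034658 to 126091185, plus strand), which encodes keratinocyte growth factor, was at 27.9 and 27.3 CPM in *Myh10*+/+ lungs against 30 and 29.3 CPM in *Myh10*-/- lungs. The genotypes did not overlap, and the means of 27.6 ± 0.42 and 29.7 ± 0.457 CPM (SD, n = 2 each) were 7.63% apart. The log2 difference was 0.11 ± 0.07 (SE), with a 95% interval of -0.05 to 0.26 and an adjusted p of 0.495 by edgeR's quasi-likelihood test, so the difference was not separable from 0 with 2 lungs a genotype.

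*Fgf9* and *Fgf18*, the ligands read mainly by the mesenchyme, were backed by few reads and differed in opposite directions, neither past the threshold. *Fgf9* (ENSMUSG00000021974, chromosome 14 from 58070547 to 58112720, plus strand) had 188 and 159 reads, or 8.21 and 8.35 CPM, in *Myh10*+/+ lungs and 271 and 281 reads, or 9.74 and 8.73 CPM, in *Myh10*-/- lungs. The *Myh10*-/- lungs were higher but lay farther from each other than the second of them lay from the *Myh10*+/+ lungs, and the log2 difference was 0.16 ± 0.12 (SE; adjusted p = 0.549). *Fgf18* (ENSMUSG00000057967, chromosome 11 from 33117430 to 33147400, minus strand) was at 12.4 and 12.7 CPM in *Myh10*+/+ lungs against 10.7 and 11.1 CPM in *Myh10*-/- lungs. Here the gap between the genotypes exceeded the spread within each, with means of 12.6 ± 0.19 and 10.9 ± 0.292 CPM (SD, n = 2 each). Its log2 difference of -0.2 ± 0.1 (SE) had a 95% interval of -0.41 to 0.01 and the lowest adjusted p of the 10 genes, 0.32, with an unadjusted p of 0.0591 (edgeR's quasi-likelihood test).

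*Fgfr2* (ENSMUSG00000030849, chromosome 7 from 130162451 to 133123350, minus strand), the receptor for FGF10 and FGF7 in the epithelium, was at 421 and 416 CPM in *Myh10*+/+ lungs against 402 and 399 CPM in *Myh10*-/- lungs. Both *Myh10*-/- lungs were lower, with a mean change of -4.22%, and the spread was small in each genotype (418 ± 3.41 and 400 ± 1.56 CPM, SD, n = 2 each). The log2 difference of -0.06 ± 0.05 (SE) had a 95% interval of 0.888-fold to 1.03-fold and an adjusted p of 0.574 (edgeR's quasi-likelihood test). The counts were summed over all transcripts, 27 of which are annotated, so they do not separate the splice form used by epithelium from that used by mesenchyme. A read-through transcript shares 314 bp with *Ctbp2*, and 2.19% of 75-base windows, the read length, along *Fgfr2* occur in that gene.

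**Figure D1:**
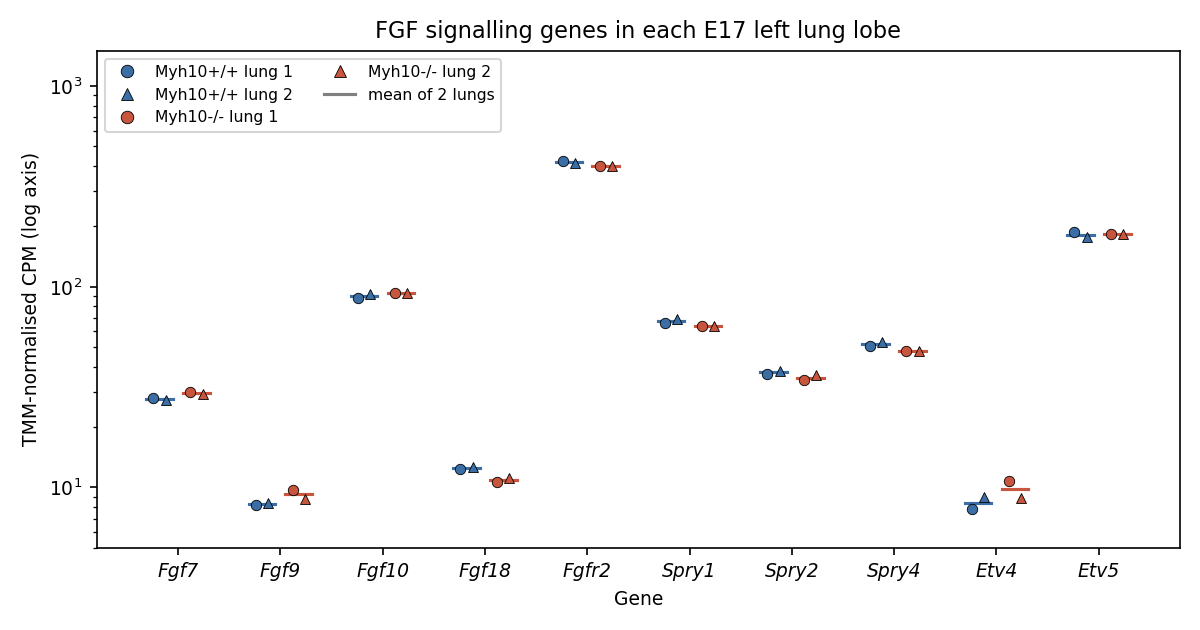
TMM-normalised CPM (log axis) of the 10 FGF genes in each lung, with *Myh10*+/+ lungs in blue, *Myh10*-/- lungs in red and the mean of the 2 lungs as a bar. Values ran from 7.81 CPM (*Etv4*) to 421 CPM (*Fgfr2*), and the points of the 2 genotypes overlap in *Etv4* and *Etv5* and lie close to each other in the other 8 genes.

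The 3 Sprouty genes, feedback inhibitors that the FGF signal itself induces, were each somewhat lower in both *Myh10*-/- lungs, and none passed the threshold. *Spry1* (ENSMUSG00000037211, chromosome 3 from 37639947 to 37644598, plus strand) was at 66.3 and 69.2 CPM in *Myh10*+/+ lungs against 63.5 and 64 CPM in *Myh10*-/- lungs, a log2 difference of -0.09 ± 0.07 (SE; adjusted p = 0.564). *Spry2* (ENSMUSG00000022114, chromosome 14 from 105891947 to 105896819, minus strand) was at 36.8 and 38 CPM against 34.2 and 36.3 CPM, a log2 difference of -0.09 ± 0.08 (SE; adjusted p = 0.618). *Spry4* (ENSMUSG00000024427) was at 50.5 and 52.9 CPM against 48 and 47.9 CPM, a log2 difference of -0.11 ± 0.07 (SE; adjusted p = 0.501, edgeR's quasi-likelihood test for the 3 genes). The mean changes were -5.88%, -5.84% and -7.17%, and the intervals reached down to 0.85-fold, 0.84-fold and 0.832-fold. In *Spry1* and *Spry4* the gap between the nearest lungs of the genotypes was close in size to the spread within the *Myh10*+/+ pair, and in *Spry2* the higher *Myh10*-/- lung was within 1 CPM of the lower *Myh10*+/+ lung. An opposite-strand gene, *Gm42922*, covers 710 bp of *Spry1* exon, and 20.1% of 75-base windows along *Spry1* occur in it. *Gm42922* had 5 and 8 counts in *Myh10*+/+ lungs and 11 and 11 in *Myh10*-/- lungs, and the sources used here do not state whether the counting used strand.

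*Etv4* and *Etv5*, the ETS factors that carry the FGF signal into transcription, overlapped between the genotypes. *Etv5* (ENSMUSG00000013089, chromosome 16 from 22381309 to 22439719, minus strand) was at 187 and 177 CPM in *Myh10*+/+ lungs against 183 and 183 CPM in *Myh10*-/- lungs, which lay between the *Myh10*+/+ values. Its log2 difference of 0.01 ± 0.05 (SE; adjusted p = 0.959) had a 95% interval of 0.935-fold to 1.08-fold, and became -0.03 without *Myh10*+/+ lung 2. *Etv4* (ENSMUSG00000017724, chromosome 11 from 101769742 to 101785371, minus strand) was at 7.81 and 8.93 CPM in *Myh10*+/+ lungs against 10.8 and 8.86 CPM in *Myh10*-/- lungs. One *Myh10*-/- lung was thus the highest and the other lay between the *Myh10*+/+ lungs, and the log2 difference of 0.23 ± 0.13 (SE; adjusted p = 0.408, edgeR's quasi-likelihood test) was the largest of the 10 in size and had the widest interval, 0.963-fold to 1.44-fold. Leaving out 1 lung at a time moved it between 0.09 and 0.38. *Etv4* and *Fgf18*, the 2 largest differences in size, lie on the same chromosome as the mutated *Myh10* (68691559 to 68816632) and differed in opposite directions. Whether their position bears on their values was not tested. Of 75-base windows along *Etv5*, 18.7% also occur in the processed pseudogene *Gm4798*, which is not among the genes analysed here.

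Across the 10 genes, 5 log2 differences were above 0 and 5 below, with a median of -0.03 against 0.002 over the 18763 genes tested. All 10 passed the filter on low counts, 0 of 10 passed an adjusted p of 0.05 (1.64% of tested genes did) and 0 of 10 had an unadjusted p under 0.05 (16.5% did). The genotypes did not overlap in 8 of the 10, with *Fgf7*, *Fgf9* and *Fgf10* higher and *Fgf18*, *Fgfr2*, *Spry1*, *Spry2* and *Spry4* lower in *Myh10*-/- lungs. With 2 lungs a genotype this happened in 48.3% of the tested genes, and it held for the same 8 when DESeq2's size factors, or the library totals alone, replaced TMM. Among the 11098 genes with a mean between 8.28 and 418 CPM, the range of the members' genotype means, 274 (2.47%) passed the threshold, and the smallest log2 difference that passed was 0.21 in size, which is no limit of detection for a given gene, since precision differs between genes. The median size over those genes was 0.09, and their 10th and 90th percentiles were -0.18 and 0.16, so *Fgf18* and *Etv4* lay outside that span, *Etv4* also beyond the 95th percentile of 0.218, and the other 8 within it.

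**Figure D2:**
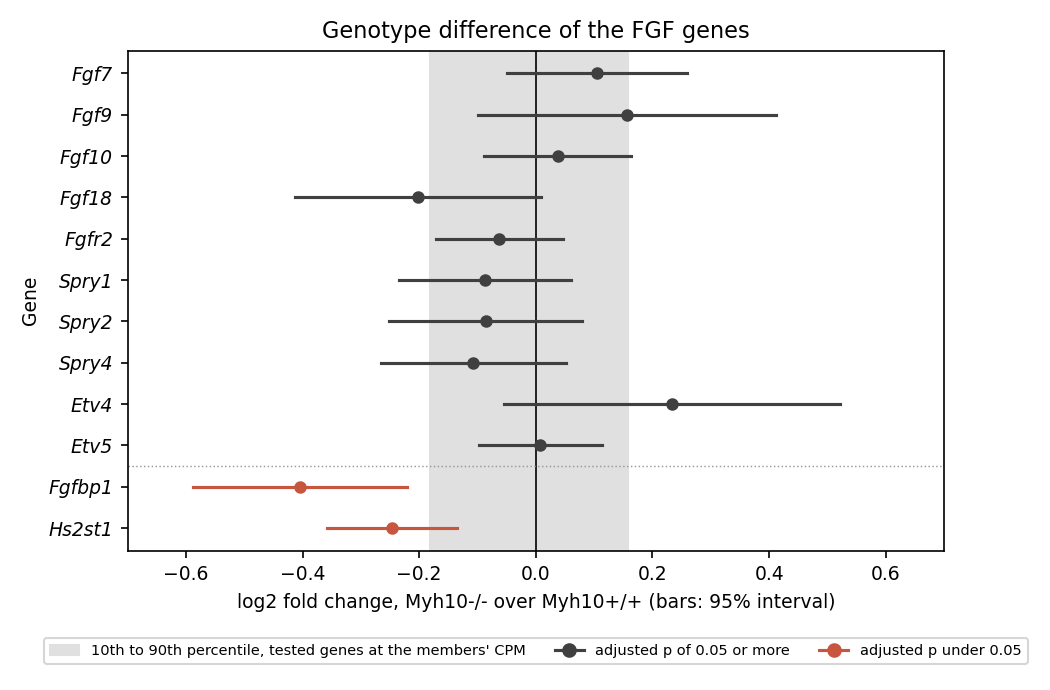
log2 fold change of *Myh10*-/- over *Myh10*+/+ lungs (x axis) with 95% intervals for the 10 FGF genes and, under the dotted line, for *Fgfbp1* and *Hs2st1*, over the 10th to 90th percentile of the 11098 tested genes at the members' CPM (grey band, -0.18 to 0.16). The intervals of the 10 FGF genes all reach across 0, while those of *Fgfbp1* (-0.59 to -0.22) and *Hs2st1* (-0.36 to -0.14) do not.

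To compare levels between genes, CPM was divided by the length of all annotated exons of the gene in kilobases. On this scale *Etv5* was highest, at a mean of 44.5 CPM per kb over the 4 lungs (range 43.1 to 45.6), followed by *Fgfr2* at 39.6 (38.7 to 40.7), *Spry1* at 22.6 (21.9 to 23.8), *Fgf10* at 19.9 (19.2 to 20.2) and *Spry2* at 17.4 (16.4 to 18.2). Then came *Spry4* at 10.5 (10.1 to 11.1), *Fgf18* at 9.9 (9.02 to 10.7) and *Fgf7* at 8.81 (8.39 to 9.23), and last *Etv4* at 2.93 (2.52 to 3.49) and *Fgf9* at 1.88 (1.77 to 2.1). Neighbours in this order overlapped over the lungs in 2 places, between *Spry4* and *Fgf18* and between *Fgf18* and *Fgf7*, and the other neighbours were apart in every lung. Union exon length includes exons that few transcripts use, which understates the per-length level of genes with long or many transcripts such as *Fgfr2*.

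**Figure D3:**
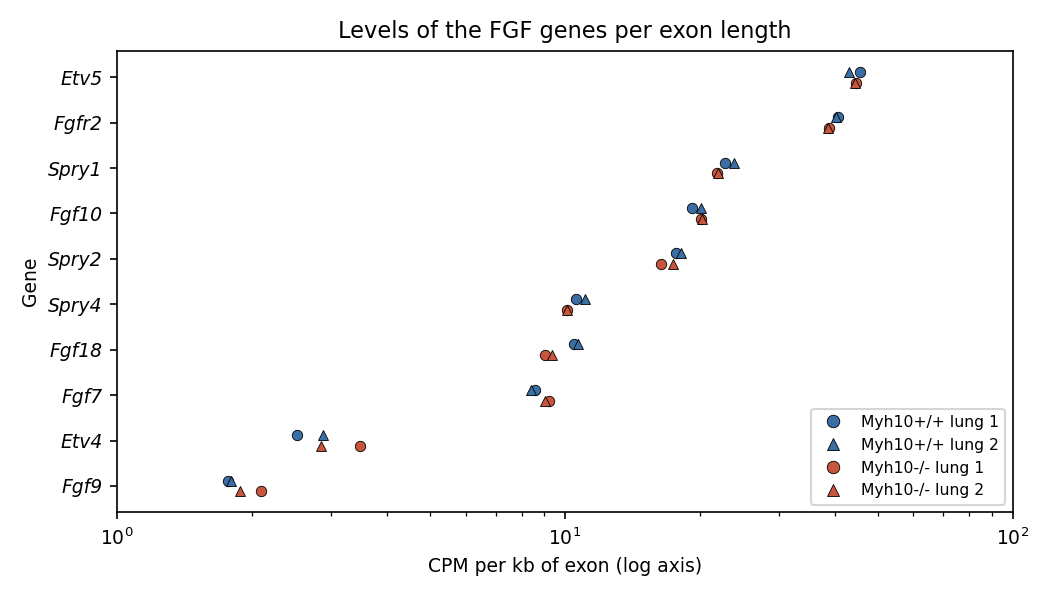
CPM per kb of exon (log axis) of the 10 FGF genes in each of the 4 lungs, in order of their mean from *Etv5* (44.5) to *Fgf9* (1.88). The lungs of each gene cluster tightly, and the ranges of *Spry4* and *Fgf18* and of *Fgf18* and *Fgf7* overlap.

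Ratios of these per-length levels were taken within each of the 4 lungs. *Fgf10* exceeded *Fgf7*, the other ligand of the epithelial receptor, by 2.18 to 2.39 times and *Fgf9* by 9.6 to 11.2 times. *Fgfr2* exceeded its ligand *Fgf10* by 1.92 to 2.12 times. *Spry1* exceeded *Spry4* by 2.14 to 2.18 times and *Spry2* by 1.27 to 1.33 times. *Etv5* exceeded *Etv4*, its close relative, by 12.8 to 18.1 times, the widest of these ranges, highest in *Myh10*+/+ lung 1 and lowest in *Myh10*-/- lung 1. Among the receptors *Fgfr3* stood highest at 45.4 CPM per kb (44.3 to 46.7), then *Fgfr2* at 39.6, *Fgfr4* at 24.1 (23.2 to 25), the decoy receptor *Fgfrl1* at 13.3 (12.3 to 14) and *Fgfr1*, the main receptor of mesenchyme, at 10.2 (10.1 to 10.4). *Fgfr2* thus exceeded *Fgfr1* by 3.72 to 4.04 times. The order of *Fgfr3* and *Fgfr2*, 1.1 to 1.17 times apart, turns on the exon length used: before division by it *Fgfr2* had 399 to 421 CPM and *Fgfr3* 317 to 335 CPM.

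The wider pathway was read from 7 lists of 101 other genes, of which 89 could be tested. In *Myh10*-/- lungs 2 of the 89 were lower past an adjusted p of 0.05 and 0 were higher, which is 2.25% against 1.64% of all tested genes and 1.34% for lower ones, and the median log2 difference of the 89 was 0.004. An unadjusted p under 0.05 was found for 22 of the 89, against 16.5% of all tested genes. The count of 2 changed with single lungs left out: it was 0 without *Myh10*+/+ lung 2 and without *Myh10*-/- lung 1, 1 without *Myh10*+/+ lung 1 and 13 without *Myh10*-/- lung 2.

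*Fgfbp1* (chromosome 5 from 43978858 to 43981779, minus strand), a secreted protein that releases stored FGF ligands from the matrix, fell from 31.1 and 31.8 CPM in *Myh10*+/+ lungs to 21.8 and 25.6 CPM in *Myh10*-/- lungs. The genotypes were well apart, and the log2 difference was -0.4 ± 0.08 (SE; 95% interval -0.59 to -0.22, adjusted p = 0.0362, edgeR's quasi-likelihood test). *Hs2st1* (chromosome 3 from 144429706 to 144570181, minus strand), the sulfotransferase that adds sulfate to the uronic acids of heparan sulfate, the sugar chain that FGFs need to bind their receptors, fell from 197 and 198 CPM to 160 and 173 CPM. Its log2 difference was -0.25 ± 0.05 (SE; 95% interval -0.36 to -0.14, adjusted p = 0.0346). Without *Myh10*+/+ lung 2 the adjusted p of *Fgfbp1* became 0.158 and that of *Hs2st1* 0.144, and without *Myh10*-/- lung 1 they became 0.239 and 0.0527. Without *Myh10*+/+ lung 1 that of *Hs2st1* became 0.125. The log2 differences stayed below 0 in these fits, at -0.39 and -0.25 without *Myh10*+/+ lung 2, -0.29 and -0.19 without *Myh10*-/- lung 1, and -0.25 for *Hs2st1* without *Myh10*+/+ lung 1. Neither gene shared a 75-base window with another gene.

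The other ligands were mostly scarce in these lungs. Of 18 on the list 8 could be tested, 0 passed, and 6 were below and 2 above 0, with a median of -0.11. *Fgf1* was at 117 and 106 CPM in *Myh10*+/+ lungs against 100 and 109 CPM in *Myh10*-/- lungs, which overlapped (log2 difference -0.09, adjusted p = 0.517, edgeR). *Fgf2*, like *Fgf1* a ligand that lacks a classical secretion signal, was at 30.4 and 31.2 CPM against 35.4 and 33.3 CPM (0.16, adjusted p = 0.314). The extremes were *Fgf14*, an intracellular FGF at 0.124 to 0.368 CPM, with a log2 difference of -0.72 ± 0.58 (SE), and *Fgf2*. The 10 untested ligands were *Fgf3*, *Fgf4*, *Fgf6*, *Fgf8*, *Fgf15*, *Fgf16*, *Fgf20*, *Fgf21*, *Fgf22* and *Fgf23*, with at most 3 counts in any lung and 7 over the 4 lungs, and 3 of them (*Fgf4*, *Fgf6* and *Fgf15*) had 0 in every lung.

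Of the other receptors, co-receptors and binding proteins, 7 of 8 could be tested and *Fgfbp1* alone passed; *Klb*, the co-receptor for endocrine FGFs, had too few counts. *Fgfr1* was at 99.4 and 100 CPM against 102 and 103 CPM in *Myh10*-/- lungs (log2 difference 0.04, adjusted p = 0.775, edgeR). *Fgfr3* was at 335 and 317 CPM against 323 and 324 CPM (-0.01, adjusted p = 0.952) and *Fgfr4* at 84.3 and 88.5 CPM against 82.1 and 86 CPM (-0.04, adjusted p = 0.8), both with overlap. *Fgfrl1* had a log2 difference of 0.06 (adjusted p = 0.755), and *Fgfbp3*, a relative of *Fgfbp1*, the largest positive one at 0.26 ± 0.09 (SE; 13.6 and 14.9 against 17.1 and 17.1 CPM, adjusted p = 0.154).

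All 19 genes for heparan sulfate synthesis and editing could be tested, 9 below and 10 above 0 with a median of 0, and *Hs2st1* alone passed. *Hs6st3*, another sulfotransferase, had the largest positive difference, 0.39 ± 0.15 (SE) at 4.63 and 4.41 against 6.29 and 5.59 CPM (adjusted p = 0.228, edgeR). Of the 22 genes that relay the signal from receptor to ERK, 0 passed, 11 were below and 11 above 0, and the median was 0. Their extremes were the small GTPase *Hras* at -0.16 ± 0.08 (SE; adjusted p = 0.345) and the ubiquitin ligase *Cbl* at 0.23 ± 0.1 (SE; adjusted p = 0.303). In the fit without *Myh10*-/- lung 2 the adjusted p of *Hras* was 0.0453 and that of *Cbl* 0.0316.

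Of the 13 other feedback inhibitors and ERK targets, 12 could be tested and 0 passed, with 5 below and 7 above 0 and a median of 0.04; *Spry3* was not analysed here. *Spred1*, which blocks RAS activation, was at 220 and 221 CPM against 221 and 220 CPM (log2 difference 0, 95% interval -0.1 to 0.1). *Dusp6*, the phosphatase that switches ERK off, was at 103 and 117 CPM against 103 and 114 CPM (-0.02, adjusted p = 0.921, edgeR). *Il17rd*, a membrane inhibitor of FGF receptors, was at 28.9 and 29.1 CPM against 34.3 and 31.2 CPM (0.17, adjusted p = 0.287). *Spred2* had a log2 difference of 0.08 (adjusted p = 0.671), *Etv1*, the relative of *Etv4* and *Etv5*, of 0.22 (adjusted p = 0.358; 0.0124 without *Myh10*-/- lung 2), *Dusp5* the lowest at -0.29 ± 0.13 (SE; adjusted p = 0.269) and *Myc* the highest at 0.29 ± 0.09 (SE; adjusted p = 0.114). Without a filter on low counts the adjusted p of *Myc* was 0.039.

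The 6 genes listed as distal epithelial and downstream of FGF10 were all above 0, between 0.02 and 0.13 with a median of 0.05, and 0 of 6 passed. *Sox9*, a marker of distal tips, was at 29.6 and 31.7 CPM against 34.7 and 32.3 CPM (log2 difference 0.13, adjusted p = 0.434, edgeR). *Id2* had a log2 difference of 0.07 (adjusted p = 0.571), *Bmp4*, a secreted factor of the tips, of 0.03 (adjusted p = 0.897) and *Nkx2-1*, the lung epithelial identity factor, of 0.02 (adjusted p = 0.881). With single lungs left out, *Id2*, *Bmp4* and *Nkx2-1* also took values below 0, of which -0.03 for *Bmp4* was the lowest.

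Among the 15 genes listed as regulators of *Fgf10*, most of them mesenchymal, 0 passed, 5 were below and 10 above 0, and the median was 0.02. Before adjustment, 8 of the 15 had a p under 0.05 by edgeR's quasi-likelihood test, in both directions, against 16.5% of all tested genes. *Tbx4*, which activates *Fgf10* in lung mesenchyme, was at 220 and 213 CPM against 215 and 225 CPM (log2 difference 0.02, adjusted p = 0.855, edgeR). *Shh*, the epithelial signal that restricts *Fgf10*, was at 60.9 and 59.2 CPM against 64.3 and 57.7 CPM (0.02, adjusted p = 0.923; -0.06 without *Myh10*-/- lung 1). *Foxf1*, a mesenchymal factor downstream of hedgehog, was lowest at 154 and 153 CPM against 132 and 140 CPM (-0.18 ± 0.05 SE, adjusted p = 0.107), and 0.0189 without *Myh10*-/- lung 2. *Isl1* had the largest positive difference, 1.1 ± 0.46 (SE), at 0.262 and 0.368 against 0.791 and 0.559 CPM (adjusted p = 0.256), all under 1 CPM.

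**Figure D4:**
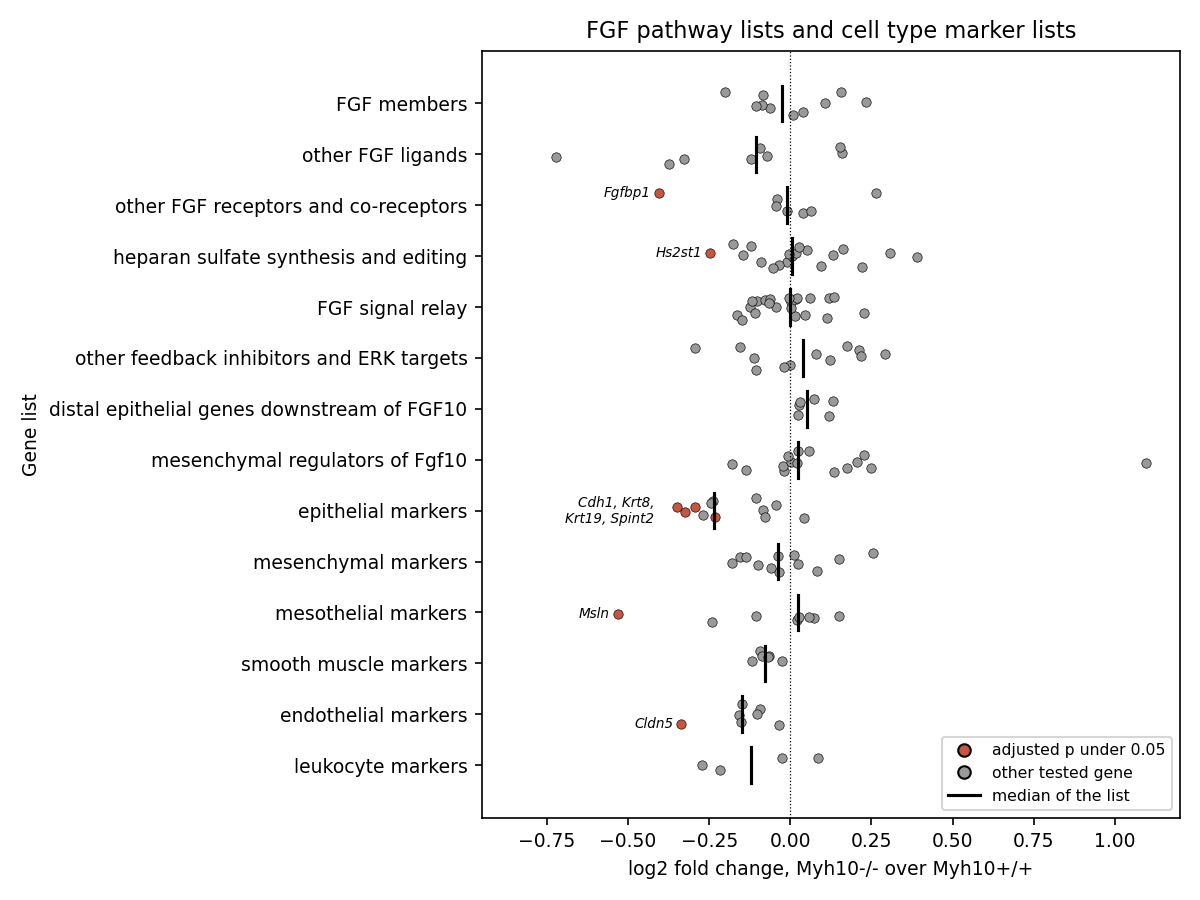
log2 fold change of *Myh10*-/- over *Myh10*+/+ lungs (x axis) for each tested gene (points) of the FGF genes, 7 pathway lists and 6 marker lists (rows), with the median of each list as a bar and genes with an adjusted p under 0.05 in red and named. The 10 FGF genes hold no red point and lie around 0, while 11 of the 12 epithelial markers lie below 0.

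The cells that send and receive FGF signals were read from marker lists in the same libraries. Of 12 epithelial markers 4 fell past the threshold, the adhesion molecule *Cdh1* (log2 difference -0.3, adjusted p = 0.0178, edgeR), the keratins *Krt8* (-0.33, adjusted p = 0.00984) and *Krt19* (-0.35, adjusted p = 0.0196) and the protease inhibitor *Spint2* (-0.23, adjusted p = 0.0487). Altogether 11 of the 12 were below 0, the median was -0.24, and their summed level was 1670 to 1680 CPM in *Myh10*+/+ lungs and 1410 to 1470 CPM in *Myh10*-/- lungs. *Epcam*, a defining epithelial marker, was at 144 and 152 CPM against 148 and 139 CPM, with overlap. *Cdh1* was at an adjusted p of 0.107 and *Spint2* of 0.359 without *Myh10*+/+ lung 1, and *Spint2* passed in neither of the other scalings (0.0512 with DESeq2's size factors, 0.0558 with library totals) and was at 0.0626 without *Myh10*+/+ lung 2. Counts of whole lobes do not show which cells express *Fgfr2*, the Sprouty genes, *Etv4* and *Etv5*. The part of the epithelial markers in their values was not tested.

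Of 12 mesenchymal markers 0 passed, 7 were below and 5 above 0, the median was -0.04, and the sum was 8070 to 8110 CPM in *Myh10*+/+ lungs and 7760 to 7920 CPM in *Myh10*-/- lungs. Each sum of markers is unweighted, so it mostly follows the most highly counted genes of its list. Of 8 mesothelial markers 1 fell, *Msln*, a surface protein of the pleura, from 207 and 224 CPM to 129 and 169 CPM (log2 difference -0.53, adjusted p = 0.0196, edgeR; 0.127 with a robust fit and 0.132 with DESeq2), while *Wt1* was at 6.46 and 6.51 against 6.79 and 7.58 CPM. Of the 8, 3 were below and 5 above 0, with a median of 0.02. The mesothelial sum was 378 to 411 CPM against 294 to 345 CPM, and without *Msln*, a split made after its value was seen, it was 171 to 187 against 165 to 175 CPM, with overlap. Its part in the value of *Fgf9* was not tested. Of 7 endothelial markers 1 fell, the junction protein *Cldn5* (-0.34, adjusted p = 0.0379; 0.0936 without *Myh10*+/+ lung 2), with a sum of 1610 to 1650 against 1460 to 1510 CPM. All 7 were below 0, with a median of -0.15, and 5 of 7 had an unadjusted p under 0.05. Of 6 smooth muscle markers 0 passed and 6 were below 0 with a median of -0.08 (684 to 739 against 664 to 666 CPM), and of 4 tested leukocyte markers 0 passed and 3 were below 0 (66.1 to 71.3 against 58.8 to 64.6 CPM).

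**Figure D5:**
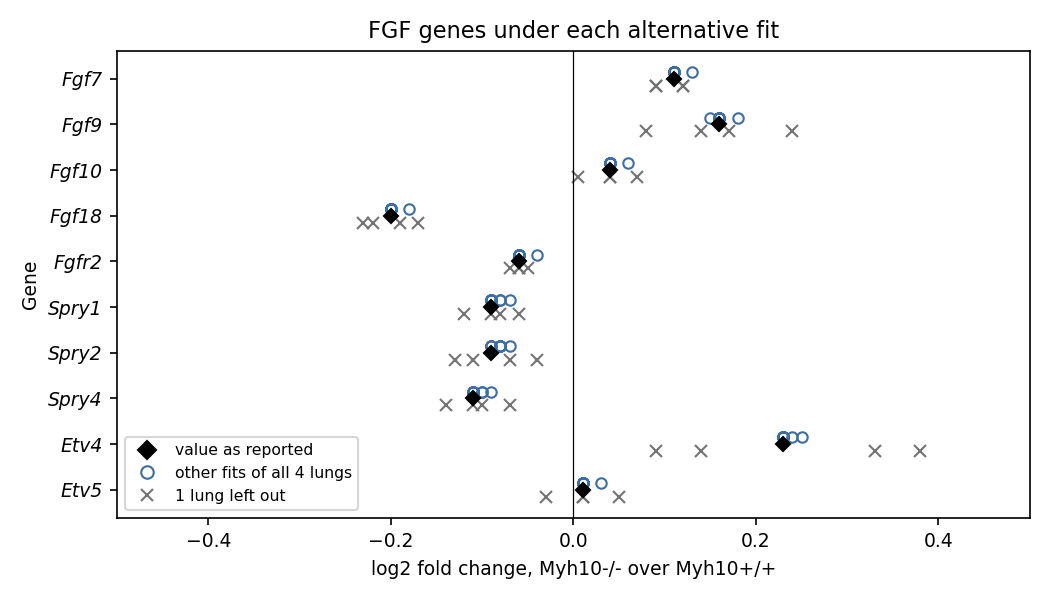
log2 fold change of *Myh10*-/- over *Myh10*+/+ lungs (x axis) of each FGF gene as reported (diamonds), in the 9 other fits of all 4 lungs (circles) and with 1 lung left out (crosses). The circles stay near the diamonds, and the crosses spread most for *Etv4* (0.09 to 0.38) and reach the other side of 0 for *Etv5* (-0.03).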

How the data were processed

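Stranded mRNA libraries were made from the left lung lobes of 4 mice at E17, 2 of each genotype. The authors deposited raw counts of single-end reads per Ensembl gene, not normalized. According to their methods and processing notes, Reaper trimmed the reads, STAR 2.4.0a placed them on GRCm38, and they were counted on exons with featureCounts 1.5.1, and reads on several genes or several places were left out, so shared exons and copies lose reads. The strand setting and annotation release are not given in the sources used here.

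Counts were tested with edgeR 4.0.16 in R 4.3.3 (TMM, glmQLFit with robust = FALSE, glmQLFTest, genotype alone in the design, mean of at least 5 counts) with Benjamini-Hochberg adjustment over 18763 genes, after a check on simulated counts. Those counts were drawn from the fitted model itself. They check the code and do not show how well the model suits these lungs. CPM carries the TMM factors, and intervals are 95%. Exon lengths and overlaps came from GENCODE M21 (GRCm38), in which 45143 of 45706 genes matched, and promoter windows from RefSeq. The lungs come from separate mice, so 2 per genotype limits precision, and litters are not described. Replicate lungs differed by more than counting error, with a chi-square per degree of freedom of 7.3 and 12.9 over all tested genes. The sum holds sex-linked genes, and the 2 lungs of each genotype were of opposite sex. *Xist* had 89703 and 35 counts in *Myh10*+/+ lungs and 114 and 143443 in *Myh10*-/- lungs, so these values overstate the spread of other genes. The values without sex-linked genes were not taken.

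The members and all gene lists were chosen with earlier results of these data known. Genes named are the 10 members, list genes with an adjusted p under 0.05, the largest fall and rise of each list, and a preset set of receptors, ligands, inhibitors, targets and regulators; *Myh10* and *Xist* are checks. *Epcam* and *Wt1* were named after their values were seen. The 13 alternatives were other scalings, filters and fits, DESeq2 1.42.0, a block for replicate number and a crossed pairing of lungs of the same sex. The rest left out chromosomes X, Y and MT, or each lung in turn.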

Additional observations from a re-analysis of the deposited data

How the results depend on the processing

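Of the FGF genes 0 of 10 passed an adjusted p of 0.05 in each of the 13 alternatives. Their order by CPM per kb, which the other fits could not alter, was the same with each single lung left out. Of their 130 log2 differences under alternatives, 129 kept their direction and 1 reversed (*Etv5*, -0.03 without *Myh10*+/+ lung 2, in a range of -0.03 to 0.05 over the lungs left out). Their lowest adjusted p was 0.25 with 4 lungs and 0.113 with 3, where the lone lung of a genotype is assumed to vary like the others. DESeq2 gave no adjusted p for *Fgf9*, *Fgf18* and *Etv4*. With 2 lungs a genotype, larger differences than that of *Etv4* (0.23) also missed the threshold, such as *Myc* (0.29) and *Dusp5* (-0.29).

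The count of 2 pathway genes was 5 with no filter, 4 with the replicate block (*Foxf1* and *Gli1* added), 1 with the crossed pairing, and 0 to 13 with a lung left out. The 308 genes of the whole table became 1162 with no filter, 474 with a robust fit, 710 with the replicate block, which kept the 308, and 206 to 1643 with a lung left out, 1643 without *Myh10*-/- lung 2. Deviations of same-numbered lungs correlated at -0.214 (-0.0187 without chromosomes X, Y and MT), and the labels tie no litter to a number. The crossed pairing, added after the data had been seen, joined lungs of the same sex, such as *Myh10*+/+ lung 1 with *Myh10*-/- lung 2, and called 415. The replicate block joined lungs of opposite sex. Of the calls 81.8% were lower with TMM, 67.6% of 346 with library totals, which move the median of all genes to 0.022, and 59.2% with no filter. The cause of these shifts was not tested.

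Of 558 values for 43 other named genes, 519 kept their direction with no call gained or lost, 16 lost and 6 gained a call, and 17 reversed, each uncalled. The 519 include values without an adjusted p, such as those of *Fgf14* and *Dusp5* from DESeq2. Genes named after their values were seen, the *Gli* genes among them, are not in these counts. *Fgfr3* reversed to 0.01 with library totals and *Spred1* to -5.1e-06 with the crossed pairing. The others reversed with single lungs left out, over which *Fgfr3* ran from -0.05 to 0.03, *Fgfrl1* from -0.01 to 0.14, *Spred1* from -0.0047 to 0.01, *Dusp6* from -0.11 to 0.07, *Id2* from -0.01 to 0.15, *Bmp4* from -0.03 to 0.09, *Shh* from -0.06 to 0.1, *Tbx4* from -0.01 to 0.06, *Nkx2-1* from -0.01 to 0.06, *Esrp1* from -0.01 to 0.1 and *Actg2* from -0.12 to 0.08.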

Other observations

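The hedgehog genes among the listed regulators of *Fgf10* are given here by their values. *Gli1*, a transcriptional target of hedgehog signalling, was at 91.9 and 88.7 CPM in *Myh10*+/+ lungs and at 108 and 104 CPM in *Myh10*-/- lungs (log2 difference 0.23, adjusted p = 0.073, edgeR's quasi-likelihood test). *Gli2* was at 31.7 and 29.3 against 37.6 and 35 CPM (0.25, adjusted p = 0.142), *Gli3* at 53.5 and 53.6 against 66.3 and 57.1 CPM (0.2, adjusted p = 0.237) and the receptor *Ptch1* at 348 and 331 against 382 and 364 CPM (0.13, adjusted p = 0.22). In each of these 4 genes both *Myh10*-/- lungs were above both *Myh10*+/+ lungs. Genotypes did not overlap, in either direction, in 48.3% of all tested genes. The share for higher alone was not taken, and none of the 4 passed the threshold. *Gli1* passed it with library totals, with a robust fit, with no filter, with the replicate block and without *Myh10*-/- lung 2, and *Gli2* and *Gli3* passed it without that lung. *Hhip*, a hedgehog-binding inhibitor, overlapped between the genotypes at 168 and 148 against 153 and 157 CPM. So did the ligand *Shh*, and *Foxf1*, downstream of hedgehog, was lower in both *Myh10*-/- lungs (log2 difference -0.18, adjusted p = 0.107). The *Gli* genes, *Ptch1* and *Hhip* were named after their values were seen.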
